A study of Mus musculus with 36 samples.

Results

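The data compared here were of male control PGCs at E13.5 and at E16.5, the days over which male germ cells of the mouse stop dividing. Primordial germ cells (PGCs) are the fetal founders of sperm and eggs, and E counts days of gestation. Of the 36 RNA-seq libraries of the series, 30 were of PGCs and 6 were members of this comparison: the 3 libraries of E13.5M PGCs control and the 3 of E16.5M PGCs control, where M stands for male. A gene was tested when its mean level reached 1 TPM (a share of all transcripts that allows for transcript length) at either stage, which held for 20434 of 57126 gene IDs. All 6 libraries were labelled WT in genotype and came from control dams mated with *Oct4-EGFP* males. The sorted cells carried this transgene, in which the *Oct4* (*Pou5f1*) promoter drives green fluorescent protein in germ cells. Sex was assigned by a PCR for *Sry* or by the form of the gonad. Many fetuses were pooled for each library and EGFP-positive cells were sorted, so each value is a mean over cells that still drove the transgene. The same stages of E13.5F and E16.5F PGCs control (F for female, 3 libraries each), the 3 E12.5 PGCs control libraries and the 6 libraries of E13.5M and E16.5M PGCs IUHG were used beside them. IUHG is intrauterine hyperglycemia: those dams had received 120 mg/kg streptozotocin (STZ) at E3.5 and passed 14 mM blood glucose at E6.5.

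In the fetal testis, male PGCs leave the mitotic cycle and rest until after birth, whereas female PGCs go on into meiosis. NODAL, its co-receptor CRIPTO (encoded by *Tdgf1*) and its inhibitors LEFTY1 and LEFTY2 form a signalling loop that is active in male PGCs for a short time, and the RNA-binding protein NANOS2 holds back meiosis and favours the male course. In the same days, pluripotency genes are shut down, the PIWI-interacting RNA (piRNA) pathway, which silences transposons, is put in place, and the DNMT3 enzymes begin to restore the DNA methylation that PGCs had erased.

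The aligned sequence behind each library, read from the ratio of coverage to FPKM, was 6.90 to 7.68 gigabases at E13.5M and 3.95 to 4.73 gigabases at E16.5M, so the later stage rested on less sequence. The files give no counts, and the counting error of a gene is therefore not known. On the log2(TPM + 1) scale, Pearson's correlation across genes was 0.993 for each pair of E13.5M libraries, between 0.979 and 0.983 for pairs of E16.5M libraries, and between 0.805 and 0.810 for pairs across the stages. Genes are not independent replicates, and these values describe the libraries only. The germ cell gene *Ddx4*, the RNA helicase also called VASA, measured 208, 220.2 and 211 TPM in the 3 E13.5M libraries and 302, 289 and 273 TPM in the 3 E16.5M libraries. Other germ cell genes moved both ways, as given below. Each of the 4 Y-linked genes examined (*Eif2s3y*, *Ddx3y*, *Uty* and *Kdm5d*) was above the threshold of 1 mean TPM at both stages, and 0 of the 4 were called, with a median change of -0.80. After median-of-ratios scaling and after quantile normalization, 3 and 3 of the 4 were called lower.

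Between E13.5M and E16.5M, 10426 of 20434 genes (51.0%) changed by more than 1 on the log2 scale with an adjusted p under 0.01 (limma on log2(TPM + 1), two-sided, Benjamini-Hochberg adjustment, n = 3 against 3). Of these, 7832 (38.3% of genes tested) were higher and 2594 (12.7%) were lower at E16.5M. An unadjusted p under 0.05 was found for 82.4% of genes tested, and the libraries of the stages did not overlap in 82.5% of genes tested, so a lack of overlap is common here and is read against that share. The excess of risers depended on the scaling. The median change of all genes tested was 0.62 on log2(TPM + 1), 0.36 after median-of-ratios scaling and -0.044 after quantile normalization. Among called genes, 75.1% were higher at E16.5M with TPM as deposited, 64.1% with median-of-ratios scaling and 45.6% with quantile normalization. With quantile normalization 3903 of the 20434 genes tested were called higher and 4659 lower. Counts of list members under that scaling, given below, are to be read against those counts and not against 38.3% and 12.7%. Of the 127 genes tested that a fixed rule picked for naming, 117 were called, and 0 of these 117 changed direction under any alternative. Most parts of the rule picked genes already called, so these counts describe the named genes and do not test the calls.

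**Figure D1:**
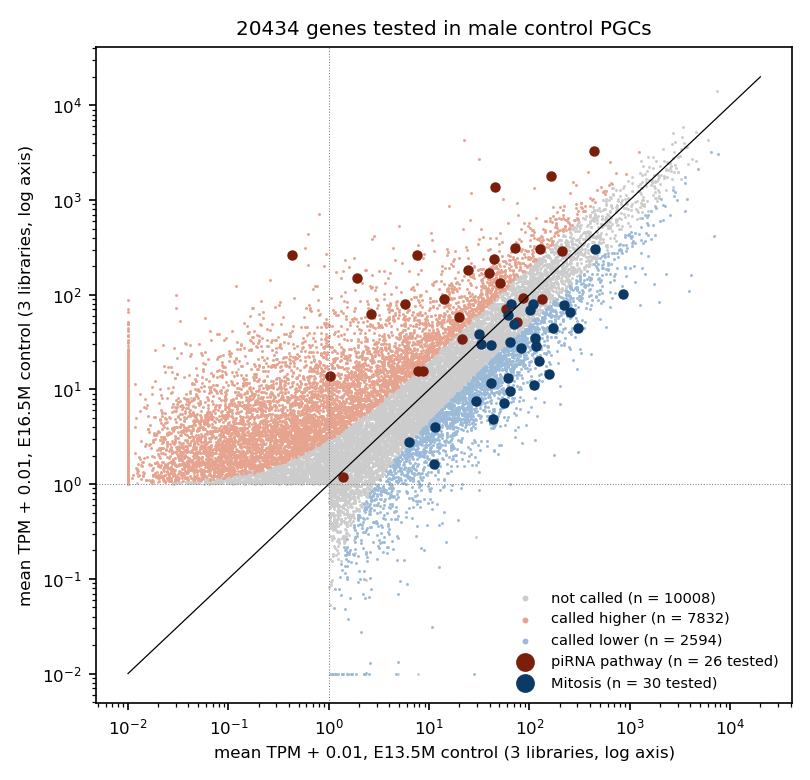
Mean TPM + 0.01 of each gene tested at E13.5M (horizontal log axis) and E16.5M (vertical log axis), 3 control libraries per stage, with the diagonal marking equal levels and dotted lines at 1 TPM. The 7832 genes called higher (light red) reach far into levels under 1 TPM at E13.5M, most piRNA pathway genes (dark red) lie above the diagonal, and most mitosis genes (dark blue) lie below it.

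A large set of genes passed 1 TPM only at E16.5M. Per library, 13703 to 13905 genes reached 1 TPM at E13.5M and 19720 to 19835 at E16.5M, although the E16.5M libraries had fewer aligned bases. In all, 12947 genes had a mean of at least 1 TPM at both stages, 6706 at E16.5M alone and 781 at E13.5M alone. Over the 12947 genes present at both stages, 2748 were called higher and 2280 lower, with a median change of 0.03, so risers and fallers were close to balanced there. The 6706 genes above 1 TPM at E16.5M alone had a median level of 0.146 TPM at E13.5M and 2.36 TPM at E16.5M. Together they held 3.46% of all TPM at E16.5M, and 5084 of them were called higher. They had to be higher at E16.5M to enter that class, so this count is a description. By RefSeq gene type, 3887 of the 6706 were protein coding, 924 were long noncoding RNAs, 522 were pseudogenes and 1255 had no match. A mean of under 1 TPM in E12.5, E13.5F and E16.5F control PGCs was found for 3949 of them. In female control PGCs the same class, above 1 TPM at E16.5F alone, held 3321 genes.

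**Figure D2:**
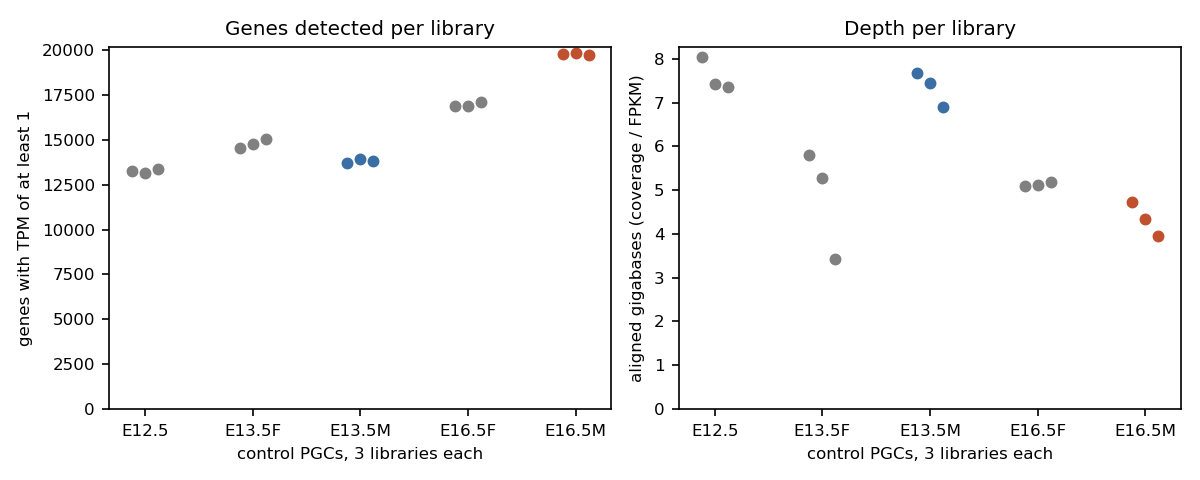
Genes with at least 1 TPM (left) and aligned gigabases (right) in each of the 3 control libraries of the 5 PGC groups, with E13.5M in blue, E16.5M in red and the other groups in grey. The 3 E16.5M libraries sit at 19720 to 19835 genes, above every other control library, while their depth is among the lower ones.

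Genes that mark unrelated organs were among those that appeared at E16.5M. Of 26 such genes, 20 were tested, and 15 of these 20 passed the minimum of 1 TPM through E16.5M alone, so that they had to be higher there. The counts are therefore only a description: 18 rose and 1 fell, or 11 and 1 after quantile normalization. *Afp*, which encodes the fetal liver protein alpha-fetoprotein, measured 0.939, 1.81 and 1.56 TPM at E13.5M and 233, 225 and 236 TPM at E16.5M. All 3 E16.5M libraries were far above all 3 E13.5M libraries, and the log2 fold change was 6.59 ± 0.14 (SE), adjusted p = 8.09e-09. The heart myosin gene *Myh6* measured 0.218, 0.0182 and 0.243 TPM and then 23.1, 28.3 and 27.2 TPM, a log2 fold change of 4.55 ± 0.14 (SE), adjusted p = 3.38e-08. *Sftpc*, a surfactant gene of the lung, was listed at 0 in the 3 E13.5M libraries and measured 20.3, 13.2 and 11.0 TPM at E16.5M. The levels of the list were uneven: the liver gene *Alb* measured 0.589, 1.96 and 0.240 TPM at E16.5M, and *Umod*, a kidney gene, was listed at 0 in all 6 libraries. The member that fell was *Nphs1*, the nephrin gene of the kidney filter, with a log2 fold change of -2.61 ± 0.13 (SE), adjusted p = 3.33e-07.

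Markers of other cells of the gonad and of blood were measured beside these. These counts are a description too, since members such as 4 of the 5 endothelial genes tested passed the minimum through E16.5M alone, and 38.3% of all genes tested rose. Of the blood genes, 6 of 7 were tested and 5 rose, with a median change of 4.54. The alpha-globin gene *Hba-a1* measured 38.4, 1.49 and 0.538 TPM at E13.5M and 270.4, 140.2 and 124 TPM at E16.5M. The first E13.5M library and the first E16.5M library were the highest of their stages, and the call (log2 fold change 4.99 ± 1.05 (SE), adjusted p = 0.00222) was lost when any 1 of the E16.5M libraries was left out. The summed level of the 7 blood genes was 2.02 to 76.2 TPM at E13.5M and 253 to 577 TPM at E16.5M. Of 10 Sertoli cell genes tested, 2 rose, with a median of 0.63, and the defining genes *Sox9* and *Amh* were not called, at means of 5.16 and 1.82 TPM at E16.5M. With quantile normalization 1 Sertoli gene was higher and 2 lower, with a median of -0.31. The summed level of the 10 Sertoli genes was 134 to 145 TPM at E13.5M and 205 to 226 TPM at E16.5M. Of 6 Leydig cell genes tested (median 0.81), 1 rose, the side-chain cleavage enzyme gene *Cyp11a1*, which measured 50.8, 25.1 and 13.7 TPM in the E16.5M libraries against 7.05, 6.27 and 9.66 TPM at E13.5M. After median-of-ratios scaling and after quantile normalization, 0 of the 6 Leydig genes were called. The summed level of the 6 Leydig genes was 33.6 to 51.0 TPM at E13.5M and 43.8 to 189 TPM at E16.5M. Of 5 interstitial genes tested (7 in the list) 4 rose, of 5 endothelial genes tested (6 in the list) 3 rose and 1 fell, and of 4 pregranulosa genes tested (6 in the list) 3 rose, with medians of 1.51, 1.35 and 1.21. Quantile normalization left 1, 1 and 0 of these risers, with medians of 0.70, 0.21 and 0.43. The faller was *Pecam1*, which germ cells also express. Of 6 macrophage genes 1 was tested, *C1qb*, with a mean of 1.94 TPM at E16.5M, and 0 were called. How far other cells contributed to the changes described here was not tested. In bulk libraries of this kind, fewer cells of a type and less RNA per cell cannot be told apart.

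NODAL signalling genes and *Nanos2* fell steeply. Of the 19 genes listed for NANOS2 and NODAL signalling, 9 fell and 1 rose (12.7% of all genes tested fell), with a median of -0.88. Of the 19, 3 passed the minimum of 1 TPM through E13.5M alone, so that they had to be lower at E16.5M. The ligand gene *Nodal* measured 31.5, 30.7 and 29.8 TPM at E13.5M and 3.44, 1.81 and 2.52 TPM at E16.5M, a log2 fold change of -3.17 ± 0.16 (SE), adjusted p = 4.26e-07. The inhibitor gene *Lefty1*, a target of the pathway, went from 284, 307 and 316 TPM to 1.56, 3.17 and 1.81 TPM, and its log2 fold change of -6.61 ± 0.17 (SE), adjusted p = 1.49e-08 was the lowest of any gene in the 31 lists. For *Lefty2* the levels were 163, 180.0 and 179 TPM and 1.81, 2.36 and 1.87 TPM. The stages did not overlap for any of these, and both inhibitor genes fell to a few TPM. The co-receptor gene *Tdgf1* (log2 fold change -2.17) and the transcription factor genes *Otx2* (-3.55) and *Foxh1* (-2.94) fell as well. The receptor genes *Acvr1b*, *Acvr2a* and *Acvr2b*, and *Smad2*, *Smad3* and *Smad4*, which carry the signal, were not called, with log2 fold changes from -0.88 to 0.40. *Nanos2* measured 28.2, 31.9 and 31.3 TPM at E13.5M and 4.33, 7.09 and 4.65 TPM at E16.5M (log2 fold change -2.33 ± 0.16 (SE), adjusted p = 2.41e-06). Its relative *Nanos3*, counted with the PGC genes below, which protects early PGCs from death, fell from 258, 259 and 272 TPM to 41.2, 49.2 and 43.5 TPM (log2 fold change -2.54 ± 0.08 (SE), adjusted p = 2.73e-08). *Cnot1*, the scaffold of the CCR4-NOT complex that NANOS2 recruits, also fell (-1.59), whereas *Cnot3* and *Cnot7* were not called. The riser was *Dnd1*, the RNA-binding partner of NANOS proteins, from 506, 591 and 587 TPM to 1208, 1131 and 1116 TPM. Its log2 fold change of 1.04 ± 0.07 (SE), adjusted p = 1.71e-06 lay at the threshold and was 0.69, not called, after median-of-ratios scaling.

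**Figure D3:**
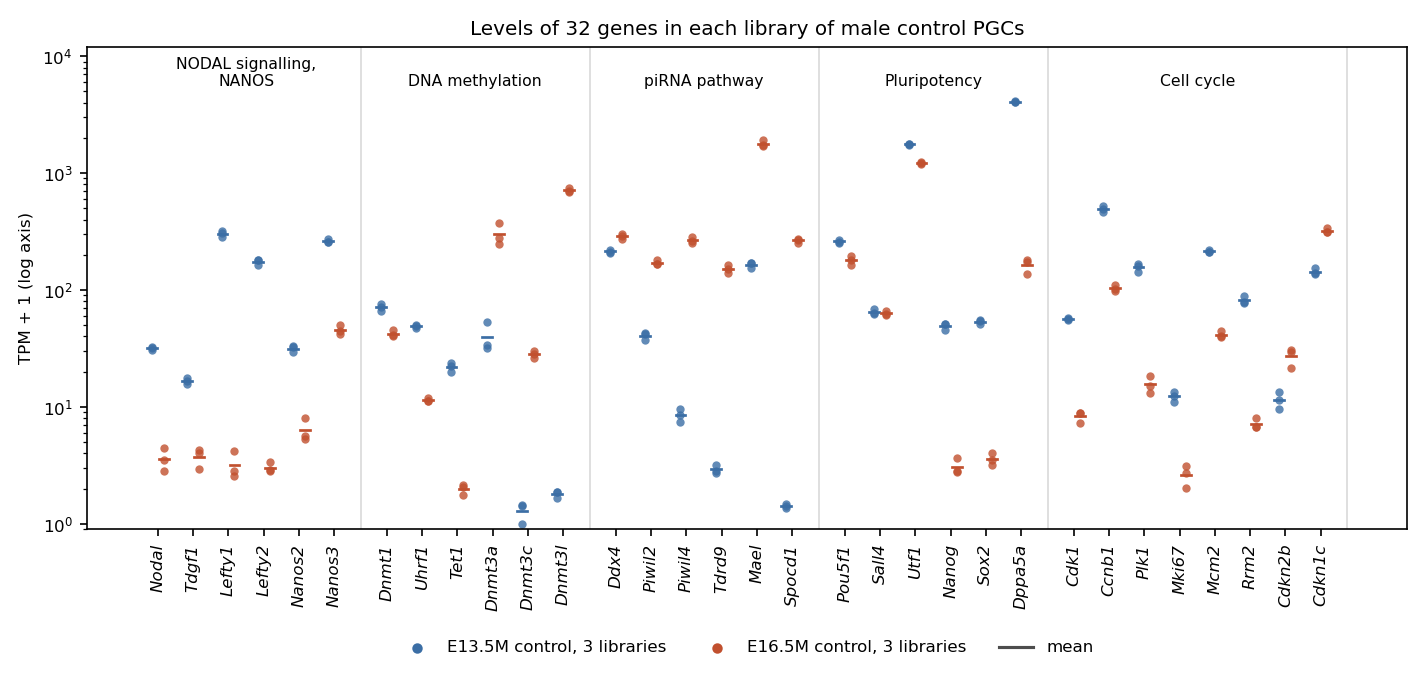
TPM + 1 (log axis) of 32 genes in each of the 3 E13.5M (blue) and 3 E16.5M (red) control libraries, with bars at the mean, in 5 groups by role. The NODAL genes fell to a few TPM, *Dnmt3l* and *Spocd1* rose from under 1 TPM to levels far above it, and *Sall4* overlapped between the stages.

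Most genes of mitosis fell. All 30 listed genes were tested, 19 fell and 0 rose, where 12.7% of all genes tested fell, with a median of -1.72 against 0.62 for all genes tested. *Plk1*, a kinase that drives entry into mitosis, measured 143, 159 and 167 TPM at E13.5M and 12.3, 14.0 and 17.4 TPM at E16.5M. The libraries of the stages lay far apart, with a log2 fold change of -3.35 ± 0.12 (SE), adjusted p = 7.42e-08. *Aurkb*, the kinase of the chromosomal passenger complex, went from 108, 117 and 105 TPM to 11.7, 10.8 and 10.7 TPM (-3.20 ± 0.08 (SE), adjusted p = 1.29e-08). *Ube2c*, which helps to degrade cyclins at the end of mitosis, was the most abundant gene of the list at E13.5M, at 858, 853 and 874 TPM, and stood at 99.3, 99.0 and 104 TPM at E16.5M (-3.08 ± 0.05 (SE), adjusted p = 3.09e-09). The proliferation marker *Mki67* was low already at E13.5M, at 10.0, 11.4 and 12.4 TPM, and was 2.11, 1.03 and 1.71 TPM at E16.5M (-2.25 ± 0.18 (SE), adjusted p = 5.58e-06). The fall was uneven across the list. *Ndc80* of the kinetochore measured 59.4, 62.7 and 59.7 TPM and then 68.1, 53.3 and 59.7 TPM, so its stages overlapped, and *Cenpe*, *Kif23* and *Racgap1* were not called either, with log2 fold changes of 0.30, -0.12 and 0.28. *Cdc20*, an activator of cyclin degradation, kept 308, 295 and 304 TPM at E16.5M against 443, 447 and 455 TPM before.

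DNA replication genes and their E2F regulators showed a smaller and more divided change. Of 48 genes, 23 fell and 1 rose, where 12.7% of all genes tested fell, with a median of -0.84. Of the 48, 2 were tested through E13.5M alone and had to be lower at E16.5M. *Rrm2*, a subunit of the enzyme that makes deoxyribonucleotides, measured 77.9, 87.0 and 76.1 TPM at E13.5M and 7.01, 5.75 and 5.78 TPM at E16.5M (log2 fold change -3.50 ± 0.10 (SE), adjusted p = 2.40e-08). *Tyms*, the thymidylate synthase gene, fell by a similar amount, from 71.5, 65.3 and 64.3 TPM to 7.54, 8.70 and 8.18 TPM. Among the 6 subunits of the replicative helicase, *Mcm2* (-2.37), *Mcm4* (-1.66), *Mcm5* (-1.10) and *Mcm6* (-1.48) fell, while *Mcm3* (-0.87) and *Mcm7* (-0.67) moved less than the threshold. *Pcna*, the sliding clamp, fell from 294, 311 and 304 TPM to 75.2, 67.3 and 80.8 TPM. The riser was *E2f6*, a repressor among the E2F factors, from 27.9, 31.4 and 27.2 TPM to 85.9, 90.8 and 77.7 TPM (1.52 ± 0.09 (SE), adjusted p = 7.84e-07), while *E2f3*, *E2f4*, *E2f5*, *E2f7* and *E2f8* fell. *Cdt1*, *Lig1*, *Gins4* and *Rfc4* were not called, with log2 fold changes from -0.0051 to 0.55.

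Promoters of these genes are shown because many members of both lists fell and their promoters hold known cell cycle motifs. Promoter sequence came from RefSeq (GRCm38.p6, 250 bases before to 50 after each start), and letters were searched on both strands for the CHR motif (TTTGAA), the CCAAT box (CCAAT) and an E2F site (TTTCGCGC or TTTGGCGC, which can overlap each other). The CHR letters were found in 17.9% of 32851 promoters of all genes, in 81.2% of the 16 promoters of mitosis genes that fell and in 72.7% of the 11 promoters of mitosis genes that did not. CCAAT was found in 37.4%, 81.2% and 72.7% of the same promoters. The E2F letters were found in 0.813% of all promoters, in 28.6% of the 21 promoters of replication genes that fell, in 24.0% of the 25 of those that did not, and in 0.0% of the 27 promoters of mitosis genes. The shares were close between members that fell and members that did not. Promoters were matched for 25 of 30 mitosis genes and 38 of 48 replication genes. Stretches were taken only from genes that fell and whose 110 bases held the letters (CHR and CCAAT for mitosis, E2F for replication). This held for 5 mitosis and 3 replication genes, so the presence of these matches was fixed by the choice. Below are 110 bases from each of 3 mitosis and 2 replication gene promoters, written 5′ to 3′ on the gene's strand, with the motif matches in capitals. They lie at chr2:164769819-164769928 (plus strand, *Ube2c*), chr19:37376272-37376381 (plus, *Kif11*), chr11:99024190-99024299 (minus, *Top2a*), chr4:108579344-108579453 (plus, *Orc1*) and chr1:128359706-128359815 (minus, *Mcm6*).
Ube2c: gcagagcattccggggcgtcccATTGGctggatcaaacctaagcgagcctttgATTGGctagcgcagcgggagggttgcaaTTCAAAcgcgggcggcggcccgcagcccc
Kif11: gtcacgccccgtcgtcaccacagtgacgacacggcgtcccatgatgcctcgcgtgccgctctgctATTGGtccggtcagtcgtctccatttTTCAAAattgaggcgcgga
Top2a: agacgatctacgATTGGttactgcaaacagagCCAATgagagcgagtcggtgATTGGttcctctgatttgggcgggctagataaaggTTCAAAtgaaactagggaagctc
Orc1: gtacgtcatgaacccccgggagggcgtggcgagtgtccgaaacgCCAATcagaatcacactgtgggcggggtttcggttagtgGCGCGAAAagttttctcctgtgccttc
Mcm6: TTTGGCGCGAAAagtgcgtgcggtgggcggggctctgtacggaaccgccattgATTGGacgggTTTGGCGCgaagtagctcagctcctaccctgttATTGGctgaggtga

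The *Ube2c*, *Kif11* and *Top2a* stretches each hold 1 CHR match downstream of the CCAAT boxes, and the genes changed by -3.08, -2.94 and -1.93. The *Orc1* stretch holds 1 E2F match and the *Mcm6* stretch 3, of which 2 overlap, and these genes changed by -1.79 and -1.48. A letter match is not shown to be a bound site.

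Cyclins and their kinases changed in both directions. Of 18 genes, 9 fell and 3 rose, where 12.7% of all genes tested fell and 38.3% rose. The median was -0.84. *Cdk1*, the kinase of mitosis, measured 54.7, 56.7 and 55.7 TPM at E13.5M and 7.81, 6.30 and 7.93 TPM at E16.5M (log2 fold change -2.77 ± 0.10 (SE), adjusted p = 6.48e-08), with no overlap. Its partner *Ccnb1* went from 462, 497 and 525 TPM to 110.3, 96.3 and 101 TPM, and remained one of the more abundant cyclins after a log2 fold change of -2.26 ± 0.07 (SE), adjusted p = 3.43e-08. *Ccne1*, a cyclin of S phase entry, went from 35.4, 35.3 and 37.0 TPM to 8.31, 4.98 and 6.49 TPM (-2.30 ± 0.15 (SE), adjusted p = 1.88e-06). *Cdk4* stayed high, at 353, 359 and 357 TPM and 401, 394 and 374 TPM, and was not called. The risers were *Ccna1*, a germline A-type cyclin, from 0.421, 0.692 and 0.455 TPM to 23.1, 25.8 and 27.0 TPM (4.11 ± 0.13 (SE), adjusted p = 3.48e-08), the phosphatase gene *Cdc25b* (2.97) and *Ccnd2* (1.73).

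Inhibitors of cyclin-dependent kinases and pocket proteins did not move one way. Of 10 genes, 2 rose and 2 fell, where 38.3% of all genes tested rose and 12.7% fell. The median was 0.24 with TPM, -0.0078 after median-of-ratios scaling and -0.58 after quantile normalization, so its sign depended on the scaling. *Cdkn2b*, the inhibitor p15, measured 10.4, 12.3 and 8.52 TPM at E13.5M and 28.2, 29.8 and 20.6 TPM at E16.5M (1.25 ± 0.17 (SE), adjusted p = 1.44e-04), and *Cdkn1c*, the inhibitor p57, rose from 139, 153 and 136 TPM to 314, 313 and 338 TPM (1.17 ± 0.06 (SE), adjusted p = 5.88e-07). Neither was called after median-of-ratios scaling, at 0.93 and 0.83. *Cdkn1b*, the inhibitor p27, was low, at 1.73, 2.44 and 1.72 TPM and then 4.18, 3.54 and 2.78 TPM, and was not called (0.60 ± 0.17 (SE), adjusted p = 0.0112). After quantile normalization its change was -0.33, of the opposite sign. *Cdkn1a*, the inhibitor p21 and a target of p53, fell from 63.0, 68.1 and 70.0 TPM to 20.1, 14.6 and 16.1 TPM (-1.93 ± 0.12 (SE), adjusted p = 1.04e-06). Of the pocket proteins, *Rbl1* fell (-1.80), and *Rb1*, at 10.0, 9.58 and 9.62 TPM and then 4.96, 6.59 and 5.86 TPM, was not called with TPM (-0.67 ± 0.12 (SE), adjusted p = 9.69e-04) but was after quantile normalization (-1.21).

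Many pluripotency genes fell, to uneven extents. Of 24 genes 23 were tested, 12 fell and 1 rose, with a median of -1.27, where 12.7% of all genes tested fell. Of the 23, 2 were tested through E13.5M alone and had to be lower at E16.5M, and 1 through E16.5M alone. *Nanog* measured 44.5, 50.4 and 50.6 TPM at E13.5M and 1.79, 1.81 and 2.65 TPM at E16.5M (-4.01 ± 0.13 (SE), adjusted p = 4.44e-08), and *Sox2* measured 50.0, 54.7 and 53.2 TPM and 2.19, 2.99 and 2.50 TPM (-3.92 ± 0.11 (SE), adjusted p = 2.19e-08). Both were at a few TPM in all 3 E16.5M libraries. *Dppa5a* had the highest level of the list and fell from 4025, 4059 and 4112 TPM to 172, 136 and 181 TPM (-4.64 ± 0.10 (SE), adjusted p = 8.12e-09), and *Tcl1* fell from 399, 404 and 420.0 TPM to 25.0, 19.8 and 25.5 TPM. *Pou5f1*, which encodes OCT4 and whose promoter drives the reporter used for sorting, was still at 194, 181 and 163 TPM at E16.5M against 269, 253 and 256 TPM at E13.5M, and was not called (-0.53 ± 0.07 (SE), adjusted p = 1.37e-04). *Sall4*, a zinc finger factor of stem cells and spermatogonia, was at 62.7, 67.1 and 61.2 TPM and 59.6, 61.1 and 65.2 TPM, with overlapping stages (-0.039 ± 0.07 (SE), adjusted p = 0.612). *Utf1* was also kept, at 1725, 1787 and 1781 TPM and 1184, 1237 and 1209 TPM. The riser was *Klf4*, from 3.21, 2.88 and 4.09 TPM to 28.0, 25.8 and 25.3 TPM (2.65 ± 0.13 (SE), adjusted p = 2.68e-07).

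Genes of PGC specification and survival fell in 10 of 16 cases and rose in 1 (*Dnd1*, above). Their median was -1.24, and 12.7% of all genes tested fell. The interferon-induced membrane protein gene *Ifitm1*, an early PGC marker, measured 3948, 3709 and 3916 TPM at E13.5M and 112, 98.2 and 115 TPM at E16.5M (-5.14 ± 0.07 (SE), adjusted p = 2.15e-09), and *Ifitm3* changed by -3.99. *Dppa3*, which encodes STELLA, a guard against loss of methylation in the zygote, was one of the most abundant transcripts at E13.5M, at 6661, 7001 and 7130.4 TPM, and stood at 492, 350.0 and 422 TPM at E16.5M (-4.05 ± 0.11 (SE), adjusted p = 1.64e-08). *Kit*, the receptor of stem cell factor, was not called (-0.55 ± 0.12 (SE), adjusted p = 0.00222). Over the 7 pan-germ cell genes, 4 rose and 1 fell, with a median of 1.04, where 38.3% of all genes tested rose. The faller was *Dazl*, an RNA-binding licence factor of germ cells, from 1131, 1274 and 1258 TPM to 459, 434 and 432 TPM (-1.46 ± 0.06 (SE), adjusted p = 9.51e-08). Among the risers, the surface protein gene *Tex101* went from 62.3, 53.1 and 48.3 TPM to 1037, 1035 and 1030.3 TPM (4.23 ± 0.09 (SE), adjusted p = 8.09e-09).

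The DNA methylation genes changed in both directions. Of 20 genes, 7 rose and 5 fell, where 38.3% of all genes tested rose and 12.7% fell. The share that rose was close to that of all genes tested. The median was 0.13 with TPM and -0.065 after median-of-ratios scaling. With quantile normalization 6 were higher and 8 lower (median -0.74). Of the 20, 4 were tested through E16.5M alone and had to be higher there, and 1 through E13.5M alone and had to be lower. *Dnmt3l*, the cofactor of de novo methylation in germ cells, measured 0.860, 0.851 and 0.672 TPM at E13.5M and 693, 747 and 703 TPM at E16.5M. It was under 1 TPM in all 3 earlier libraries and far above it in all 3 later ones, and it had the lowest p of all genes tested (8.64 ± 0.08 (SE), adjusted p = 6.74e-10). The methyltransferase gene *Dnmt3a* rose from 32.7, 52.4 and 30.8 TPM to 248, 275 and 373 TPM (2.94 ± 0.21 (SE), adjusted p = 3.17e-06), and *Dnmt3c*, a rodent enzyme that methylates young transposons in male germ cells, went from 0.439, 0.423 and 0 TPM to 29.0, 27.3 and 25.4 TPM (4.47 ± 0.17 (SE), adjusted p = 7.94e-08). *Dnmt3b* rose from 3.99, 3.95 and 3.88 TPM to 13.3, 12.1 and 13.6 TPM, and the histone demethylase gene *Kdm1b* rose by 3.71. *Dnmt1*, the maintenance enzyme, was at 65.1, 70.4 and 75.0 TPM and 39.1, 44.4 and 39.9 TPM. Its log2 fold change of -0.75 ± 0.08 (SE), adjusted p = 3.84e-05 did not pass the fold threshold, although it did after median-of-ratios scaling (-1.09). *Uhrf1*, which brings DNMT1 to newly copied DNA, fell from 46.2, 49.3 and 48.2 TPM to 10.3, 10.2 and 10.9 TPM (-2.09 ± 0.08 (SE), adjusted p = 7.64e-08). *Tet1*, which starts the removal of methylation, fell from 18.9, 22.9 and 21.5 TPM to 0.774, 1.06 and 1.16 TPM (-3.47 ± 0.13 (SE), adjusted p = 8.92e-08), while *Tet3* rose from 0.277, 0.539 and 0.597 TPM to 10.3, 9.68 and 8.76 TPM and *Tet2* overlapped between the stages.

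Repressors that hold germline genes silent in other cells fell in 8 of 18 cases and rose in 4. Their median was -0.82, and of all genes tested 12.7% fell and 38.3% rose. *Cbx1*, a heterochromatin protein gene, fell from 316, 286 and 282 TPM to 44.9, 42.4 and 39.4 TPM, and *Cbx3* changed by -2.04. Of the Polycomb enzymes, *Ezh2* fell (-1.55) and *Ezh1*, which is typical of cells that do not divide, rose from 29.9, 34.1 and 34.1 TPM to 115, 122 and 102 TPM (1.76 ± 0.09 (SE), adjusted p = 4.09e-07). The histone methyltransferase gene *Ehmt2* rose (2.06 ± 0.08 (SE), adjusted p = 7.18e-08).

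Many genes of the piRNA pathway rose. Of 27 genes 26 were tested, 17 rose and 0 fell, where 38.3% of all genes tested rose, with a median of 2.10 against 0.62 for all genes tested. Quantile normalization gave 17 risers and 1 faller. *Spocd1*, which links piRNAs to DNA methylation in the nucleus, measured 0.484, 0.370 and 0.414 TPM at E13.5M and 272, 269 and 253 TPM at E16.5M (7.55 ± 0.08 (SE), adjusted p = 1.75e-09). *Piwil4*, which encodes MIWI2, the PIWI protein that enters the nucleus, went from 6.49, 7.58 and 8.53 TPM to 285, 260.3 and 249 TPM (4.97 ± 0.10 (SE), adjusted p = 8.09e-09), and *Piwil2*, which encodes its cytoplasmic partner MILI, from 36.1, 41.5 and 40.8 TPM to 166, 178 and 166 TPM (2.08 ± 0.07 (SE), adjusted p = 5.97e-08). All of these were higher in each E16.5M library than in any E13.5M library. *Tdrd9*, a helicase of the MIWI2 granules, rose from 1.85, 2.18 and 1.72 TPM to 139.6, 162 and 151 TPM (5.70 ± 0.10 (SE), adjusted p = 4.45e-09). *Fkbp6* was the most abundant piRNA gene at both stages and rose from 439, 443 and 429 TPM to 3248, 3298 and 3307 TPM (2.91 ± 0.04 (SE), adjusted p = 2.15e-09). *Gtsf1* (4.90), *Henmt1* (4.14), *Tex15* (3.59) and *Mael* (3.44) rose by over 3 on the log2 scale. The 9 tested members that were not called included *Ddx4* (0.43 ± 0.06 (SE), adjusted p = 1.15e-04), *Tdrkh*, *Tdrd5* and *Tdrd12*, with log2 fold changes from -0.54 to 0.92 over the 9.

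**Figure D4:**
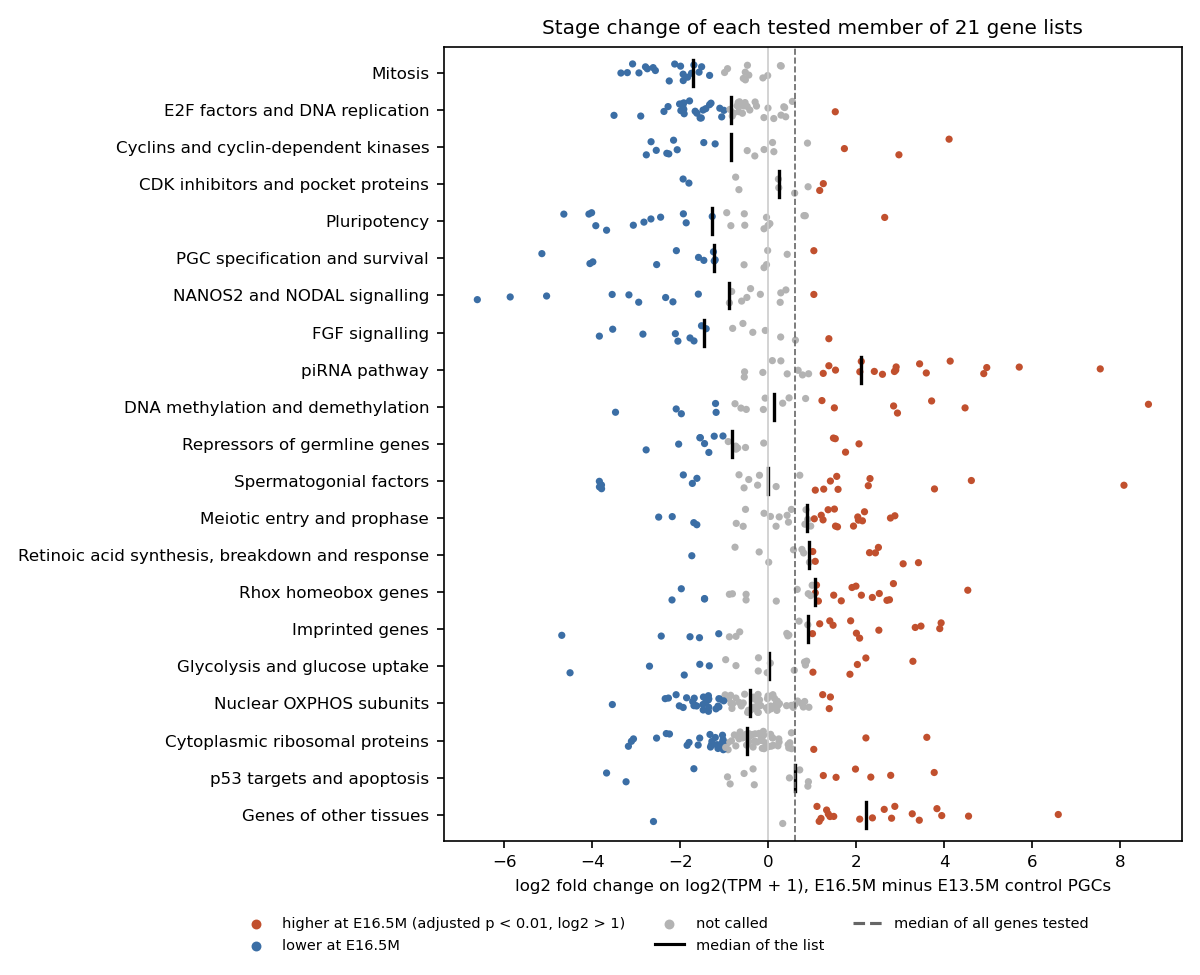
Log2 fold change (E16.5M minus E13.5M control, on log2(TPM + 1)) of each tested member of 21 gene lists, with called risers in red, called fallers in blue, other members in grey, a black bar at the list's median and a dashed line at the median of all genes tested. The mitosis list has its median at -1.72 and the piRNA pathway list at 2.10, on opposite sides of the dashed line.

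Spermatogonial factors were mixed. Of 24 genes, 10 rose and 7 fell, where 38.3% of all genes tested rose and 12.7% fell. The share that rose was close to that of all genes tested, and the median was -0.0095. With quantile normalization 6 were higher and 9 lower, and 6 of the 24 were tested through E16.5M alone. *Sohlh1*, a transcription factor of differentiating spermatogonia and oocytes, measured 0.895, 0.414 and 0.546 TPM at E13.5M and 443, 431 and 430.5 TPM at E16.5M (8.08 ± 0.11 (SE), adjusted p = 2.39e-09), while its partner *Sohlh2* fell from 102, 100.4 and 107 TPM to 6.23, 6.97 and 6.43 TPM (-3.79 ± 0.08 (SE), adjusted p = 8.09e-09). The surface protein gene *Tspan8* rose from 6.34, 6.17 and 6.22 TPM to 174, 179 and 177 TPM (4.62 ± 0.07 (SE), adjusted p = 2.68e-09). *Etv5*, a target of FGF and GDNF signalling, fell to 6.11, 5.89 and 5.32 TPM (-3.84 ± 0.09 (SE), adjusted p = 1.29e-08), and *Cdh1*, the E-cadherin gene, fell from 40.8, 44.6 and 47.0 TPM to 1.46, 2.83 and 2.34 TPM (-3.84 ± 0.16 (SE), adjusted p = 1.52e-07). *Gfra1*, the GDNF receptor gene, rose to 1.73, 1.45 and 2.12 TPM only, while its partner *Ret* fell (-1.62).

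FGF signalling genes fell in 9 of 16 tested cases (17 in the list) and rose in 1. Their median was -1.46, and 12.7% of all genes tested fell. Of the 16, 2 were tested through E13.5M alone and had to be lower at E16.5M. Another 2, *Fgf9* among them, were tested through E16.5M alone and had to be higher there. The receptor gene *Fgfr2* (-2.05), the feedback genes *Dusp4* (-3.53), *Dusp6* (-2.11) and *Spry1* (-1.78) and the target genes *Etv1* (-2.85), *Etv4* (-1.41) and *Etv5* fell, and *Fgfr1* overlapped between the stages. The riser was the ligand gene *Fgf9*, which reached 2.23, 2.84 and 1.43 TPM from 0.366, 0.181 and 0.0692 TPM. Its log2 fold change of 1.38 ± 0.20 (SE), adjusted p = 2.58e-04 was 0.21, not called, after quantile normalization.

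Of 32 meiotic genes, 14 rose and 4 fell, with a median of 0.88. The share that rose was close to the 38.3% of all genes tested, so the members are described singly. With quantile normalization 9 were higher and 6 lower, where 3903 of 20434 genes tested were higher and 4659 lower. Of the 32, 3 were tested through E16.5M alone and 1 through E13.5M alone. *Stra8*, the retinoic acid-induced gene that starts meiosis in females, measured 8.73, 13.0 and 11.7 TPM at E13.5M and 32.4, 30.0 and 43.1 TPM at E16.5M (1.57 ± 0.17 (SE), adjusted p = 4.08e-05). Its partner *Meiosin* rose from 3.13, 2.62 and 3.18 TPM to 14.7, 13.0 and 14.9 TPM, and *Rec8*, the meiotic cohesin gene, from 4.09, 4.37 and 4.05 TPM to 19.7, 24.2 and 21.7 TPM (2.14 ± 0.11 (SE), adjusted p = 4.01e-07). These genes rose from low levels. Genes of the synaptonemal complex went both ways: *Tex12* rose from 49.9, 51.6 and 46.6 TPM to 396, 322 and 320.0 TPM (2.78 ± 0.09 (SE), adjusted p = 4.33e-08), *Syce2* fell from 397, 379.7 and 419 TPM to 70.4, 68.4 and 71.5 TPM (-2.49 ± 0.06 (SE), adjusted p = 1.12e-08), *Sycp1* overlapped between the stages, and *Sycp3* was not called (0.83 ± 0.06 (SE), adjusted p = 3.00e-06). *Hormad2* fell (-2.18) and *Mei1* rose (2.88). *Dmc1*, the recombinase of meiosis, remained at 8.21, 8.64 and 9.64 TPM against 6.89, 9.02 and 7.25 TPM.

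Of 15 retinoic acid genes tested (18 in the list), 7 rose and 1 fell, with a median of 0.94, where 38.3% of all genes tested rose. Of the 15, 4 were tested through E16.5M alone and had to be higher there. With quantile normalization 5 were higher and 3 lower, with a median of 0.24. *Crabp1*, a cytosolic carrier of retinoic acid, rose from 76.8, 59.0 and 82.8 TPM to 332, 367 and 381 TPM (2.30 ± 0.12 (SE), adjusted p = 4.53e-07). The nuclear receptor gene *Rxrg* rose (3.41) and *Rxrb* fell (-1.74). The synthesis enzyme gene *Aldh1a2* rose from 10.7, 11.7 and 13.7 TPM to 76.5, 72.5 and 69.2 TPM, and the breakdown enzyme genes *Cyp26a1* and *Cyp26b1* stayed under a mean of 1 TPM at both stages.

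Homeobox genes of the X-linked Rhox cluster rose in 14 of 27 tested cases (32 in the files) and fell in 4, with a median of 1.07, where 38.3% of all genes tested rose and 12.7% fell. Of the 27, 10 were tested through E16.5M alone, and with quantile normalization 9 were higher and 6 lower (median 0.18). *Rhox10*, which acts in the making of spermatogonial stem cells, measured 21.0, 26.0 and 30.3 TPM at E13.5M and 652, 595 and 594 TPM at E16.5M (4.54 ± 0.12 (SE), adjusted p = 1.62e-08). *Rhox9* fell from 96.2, 81.8 and 84.7 TPM to 20.5, 14.2 and 21.4 TPM and *Rhox5* from 741, 747 and 771 TPM to 279, 266 and 281 TPM. The Rhox2 and Rhox4 copies are nearly identical and only uniquely mapped reads were kept, so the split among those copies is uncertain. Across the X chromosome as a whole, 34.9% of 722 genes tested were higher and 14.4% lower.

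Imprinted genes rose in 12 of 25 tested cases (31 in the files) and fell in 5, with a median of 0.90, where 38.3% of all genes tested rose and 12.7% fell. With quantile normalization 8 were higher and 6 lower, with a median of 0.049, and 6 of the 25 were tested through E16.5M alone. *Grb10* measured 0.880, 1.36 and 0.673 TPM at E13.5M and 31.2, 28.1 and 26.9 TPM at E16.5M (3.93 ± 0.15 (SE), adjusted p = 8.70e-08), and *Dlk1* rose from 3.00, 3.32 and 3.13 TPM to 51.9, 63.8 and 68.0 TPM (3.90 ± 0.12 (SE), adjusted p = 2.86e-08). *Snrpn*, a splicing factor gene, fell from 199, 204 and 208 TPM to 5.71, 7.19 and 8.05 TPM (-4.69 ± 0.11 (SE), adjusted p = 1.22e-08), and *Peg3* fell (-2.43). *H19* was at 7.10, 9.35 and 6.88 TPM and was not called. These values do not tell the parental alleles apart.

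Genes of glucose use changed in both directions, with 5 of 20 rising and 5 falling, where 38.3% of all genes tested rose and 12.7% fell. The median was 0.013, but -0.33 once scaled by median-of-ratios. The lactate dehydrogenase genes crossed: *Ldhb* fell from 1932, 1956 and 1930.3 TPM to 78.6, 86.4 and 89.0 TPM (-4.50 ± 0.06 (SE), adjusted p = 2.15e-09), and *Ldha* rose from 39.4, 41.5 and 38.9 TPM to 195, 196 and 178 TPM (2.22 ± 0.06 (SE), adjusted p = 2.51e-08). At E13.5M every library had more *Ldhb* than *Ldha*, and at E16.5M every library had more *Ldha*. *Aldoc* rose (3.29), *Pdk1*, a brake on pyruvate oxidation, fell (-2.70), and *Gapdh* fell from 1070.4, 1086 and 1082 TPM to 342, 389 and 371 TPM. The nuclear genes of oxidative phosphorylation fell in 27 of 83 tested cases (84 in the list) and rose in 3. Their median was -0.42, and 12.7% of all genes tested fell. *Atp5pb* of the ATP synthase fell (-2.34 ± 0.06 (SE), adjusted p = 1.58e-08), while *Ndufs8* (1.41) and *Uqcrc1* (1.39) rose. Of the 13 mitochondrial mRNAs, 1 fell and 0 rose, with a median of 0.075. The faller was *mt-Nd4l*, from 9.74, 15.4 and 16.2 TPM to 4.64, 5.81 and 4.84 TPM.

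Cytoplasmic ribosomal protein genes fell in 24 of 83 cases and rose in 3, where 12.7% of all genes tested fell. The median was -0.47. The count depended on the scaling: 35 fell after median-of-ratios scaling, where 3667 of 20434 genes tested fell. After quantile normalization 17 fell (median -0.29), where 4659 of 20434 fell, so the list did not stand out there. Among highly expressed members, *Rpl13* went from 7335, 7389.6 and 7893 TPM to 3007, 3127 and 3087 TPM (-1.29 ± 0.04 (SE), adjusted p = 3.22e-08). *Rps14* and *Rps15* fell by 1.02 and 1.14 on the log2 scale, but were not called after quantile normalization (-0.77 and -0.98). *Rpl10* fell (-3.11) while its germline copy *Rpl10l* rose from 67.2, 65.4 and 78.7 TPM to 336, 331 and 325 TPM (2.22 ± 0.08 (SE), adjusted p = 5.01e-08). *Rpl3l* rose as well (3.60) and *Rpl22* fell (-3.18). Ribosomal protein genes have many near-identical pseudogenes, so their levels from unique reads are uncertain.

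Genes of p53 and apoptosis rose in 6 of 18 tested cases (22 in the list) and fell in 3, with a median of 0.60, which are about the shares (38.3% and 12.7%) and the median of all genes tested. With quantile normalization 6 were higher and 7 lower. *Trp53* itself fell from 259, 281 and 275 TPM to 18.2, 20.1 and 23.0 TPM (-3.67 ± 0.09 (SE), adjusted p = 1.29e-08), whereas its relative *Trp63*, a guard of the germline, rose from 1.40, 1.23 and 1.18 TPM to 31.4, 25.6 and 33.5 TPM (3.77 ± 0.13 (SE), adjusted p = 5.32e-08). The pro-apoptotic genes *Pmaip1* (-3.23) and *Bax* (-1.69) fell. *Fas* rose (2.78), as did the survival gene *Bcl2l1*, from 48.8, 53.4 and 48.8 TPM to 221, 197 and 189 TPM.

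Other genes had some of the lowest p-values or highest levels. The metallothionein genes, which bind zinc and copper, were among the most abundant transcripts at E16.5M: *Mt1* rose from 26.5, 18.3 and 22.1 TPM to 3542, 4624 and 4809 TPM (7.54 ± 0.15 (SE), adjusted p = 7.16e-09) and *Mt2* from 38.2, 28.9 and 26.7 TPM to 2456, 2798 and 2856 TPM (6.40 ± 0.12 (SE), adjusted p = 7.16e-09). *Nxf2*, an X-linked germline RNA export factor, rose from 15.9, 15.4 and 16.0 TPM to 948, 808 and 816 TPM (5.68 ± 0.07 (SE), adjusted p = 2.15e-09), and *Ccdc113*, a cilium gene, from 0.973, 0.720 and 0.973 TPM to 202, 205 and 197 TPM (6.75 ± 0.09 (SE), adjusted p = 2.24e-09). The alpha-tubulin gene *Tuba3b* rose from 74.2, 73.9 and 79.2 TPM to 925, 959 and 942 TPM (3.62 ± 0.05 (SE), adjusted p = 2.39e-09), and its near-identical copy *Tuba3a* rose by 1.40, with the split between the copies uncertain. *Tmsb10*, an actin-binding peptide gene, rose by 1.38. Among fallers of lowest p, *Ptma*, the prothymosin gene linked to proliferation, went from 1794, 1720.4 and 1743 TPM to 123, 135 and 129.9 TPM (-3.75 ± 0.05 (SE), adjusted p = 2.24e-09). The peroxide-clearing enzyme gene *Gpx1* fell from 2209, 2264 and 2385 TPM to 173, 154 and 167 TPM (-3.79 ± 0.06 (SE), adjusted p = 3.05e-09), and the RNA-binding protein gene *Pcbp1* from 548, 577 and 594 TPM to 44.5, 46.2 and 47.3 TPM (-3.61 ± 0.06 (SE), adjusted p = 3.32e-09).

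Female control PGCs over the same days gave a comparison that shared no library with the male one. There 28.2% of 17988 genes tested were called, 3307 higher (18.4%) and 1760 lower (9.78%) at E16.5F. Of the 7832 genes higher at E16.5M, 1283 (16.4%, or 38.8% of the female list) were also called higher in females and 371 were called lower. Of the 2594 lower genes, 541 (20.9%, or 30.7% of the female list) were also lower in females and 206 were higher. The difference between the sexes in the stage change was tested as an interaction in 1 fit over the 12 libraries, and 9874 of 22654 genes (43.6%) differed, with a higher change in males for 27.7% and a lower one for 15.9%. Of 25 piRNA genes tested in females, 11 rose and 0 fell (median 0.90), where 18.4% of all genes tested rose. The male change was higher in 15 piRNA members and lower in 0. Female changes were 0.74 for *Piwil4* and 0.42 for *Piwil2*. For *Piwil4* the sexes differed by 4.22, and for *Piwil2* by 1.67. *Spocd1* and *Dnmt3l* stayed under 1 mean TPM in females, and differed by 7.55 and 8.44. Of 30 mitosis genes, 11 fell and 0 rose in females (median -0.62), where 9.78% of all genes tested fell. The male change was lower in 14 mitosis members and higher in 2. *Mki67* changed by 0.13 in females (difference -2.38) and *Cdk1* by 0.19 (difference -2.96), whereas *Ccnb1* fell more in females (-3.84, difference 1.58) and *Nanog* fell by 4.14 in females (difference 0.12 ± 0.33 (SE), not called). The 48 replication genes fell to a like extent in both sexes: 22 fell and 1 rose in females, with a median of -0.89 against -0.84 in males. The male change was higher in 9 replication members and lower in 10. *Pou5f1*, *Sall4* and *Utf1*, which males kept, fell in females by 3.70, 3.68 and 5.13 on the log2 scale. *Stra8* and *Rec8*, which rose in males, fell in females, with log2 fold changes of -3.66 and -4.37 from far higher levels, a mean of 1832 TPM of *Stra8* at E13.5F. NODAL signalling genes were low in females at both stages, where *Lefty2* and *Tdgf1* were under the threshold of 1 mean TPM at both stages.

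**Figure D5:**
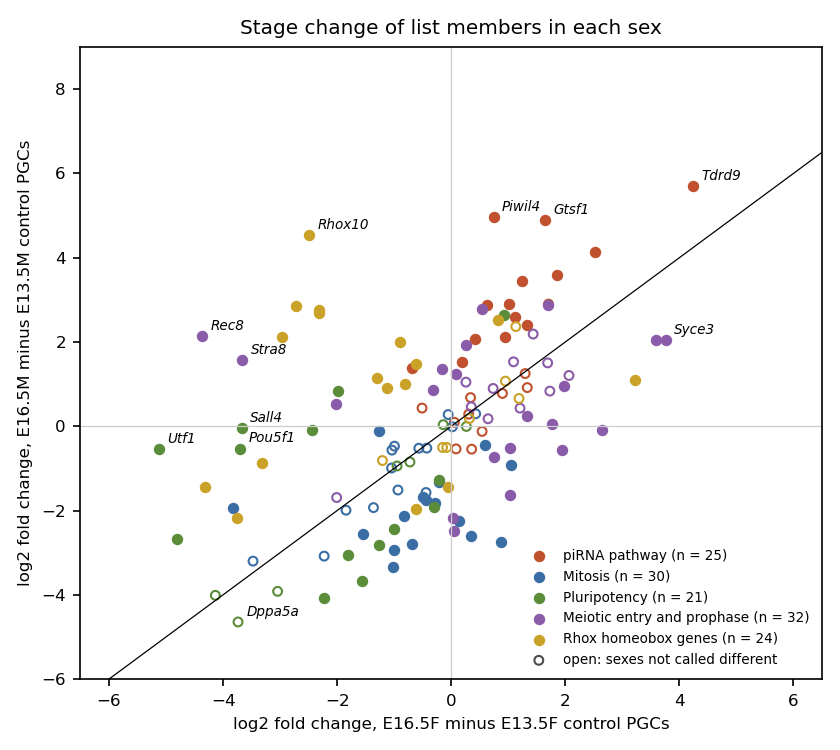
Log2 fold change from E13.5 to E16.5 in female (horizontal) and male (vertical) control PGCs for members of 5 gene lists, on log2(TPM + 1), with filled points where the sexes were called different and the diagonal marking equal change. piRNA genes lie above the diagonal or near it, and *Pou5f1*, *Sall4* and *Utf1* lie at the left, near 0 in males and far below 0 in females (*Spocd1* and others not tested in females are not drawn).

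The male comparison was repeated in the IUHG libraries, which share none with the control comparison. There 51.5% of 20638 genes tested were called, 8131 higher (39.4%) and 2502 lower (12.1%) at E16.5M. Of the 7832 genes higher in control PGCs, 6547 (83.6%, or 80.5% of the IUHG list) were also called higher, and 10 were called lower. Of the 2594 lower genes, 1991 (76.8%, or 79.6% of the IUHG list) were also called lower, and 1 was called higher. Side by side, the log2 fold changes in control and IUHG PGCs were 8.64 and 9.36 for *Dnmt3l*, 4.97 and 6.14 for *Piwil4*, -6.61 and -6.45 for *Lefty1*, and -3.35 and -3.69 for *Plk1*. *Nanos2* and *Stra8* were among the genes whose calls differed, named after their values were seen. *Nanos2* measured 5.44, 2.78 and 4.33 TPM in E13.5M IUHG and 2.04, 3.91 and 3.36 TPM in E16.5M IUHG PGCs, and its change of -0.33 was not called, against -2.33 in control PGCs. *Stra8* measured 175, 138 and 134 TPM and then 56.0, 44.0 and 42.6 TPM there, and its change was -1.63, called lower, against 1.57, called higher, in control PGCs. The difference between control and IUHG in these changes was not tested.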

How the data were processed

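RNA of FACS-sorted, EGFP-positive PGCs was amplified as full-length cDNA (Smart-seq2) and sequenced in pairs, without strand. The authors trimmed reads with Trim Galore, aligned them to Mm39 with STAR in a repeated pass and kept uniquely mapped reads, so near-identical copies are uncertain and antisense partners cannot be told apart. The deposited gene tables held TPM, FPKM and coverage as the authors computed them. TPM was the measure, FPKM an alternative, and the deposited coverage signal divided by FPKM gave each library's aligned bases. Rows were summed per gene ID, and genes with a mean of at least 1 TPM in a compared group were tested with limma 3.58.1 (R 4.3.3, trend, two-sided) on log2(TPM + 1), which understates changes of low genes. A gene was called at an adjusted p (Benjamini-Hochberg) under 0.01 and a log2 change over 1. The study's fold threshold was kept, while the adjustment of p was made here. The authors' own test needed counts, and limma stands in for it. With 3 libraries against 3, an exact permutation test of a single gene cannot go below 0.1, so p-values come from the fit across genes. Libraries are pools of fetuses, and p-values measure the spread between pools. Groups came from the labels.

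The 31 gene lists and the comparison were chosen with earlier results of these data known. Genes named were those of lowest p, the most changed of each list, a set of 28 fate genes, the top genes of the interaction with sex, and the most abundant risers and fallers. Other list members were named after their values were seen, to show which were not called. Alternatives were FPKM, other pseudocounts, filters, scalings and thresholds, protein-coding genes alone, a fit over all groups, no trend, a replicate block and leaving out each library. The fit was tested on simulated data. Gene types and promoters came from RefSeq tables (GRCm38.p6). Promoter coordinates are of that build and were not set against the deposited ones. Some list members are not reported here by name.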

Additional observations from a re-analysis of the deposited data

Results flagged for a closer look

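The stage change differed between male and female control PGCs, by the interaction term in a limma fit over the 12 libraries, in 9874 genes: it was higher in males in 6270 and lower in 3604. Values below are male minus female log2 fold changes from E13.5 to E16.5, each called at an adjusted p under 0.01 by limma. Among genes of lowest p, the tubulin genes *Tuba3b* (5.54), *Tuba3a* (3.43) and *Tubb5* (3.65) and the piRNA gene *Spocd1* (7.55) were higher in males. *Tubb5* was not called in males alone, where it changed by 0.21 (and by -0.13 once scaled by median-of-ratios). The histone genes *H2ax* (-3.88) and *H1f0* (-4.98), the kinetochore gene *Spc24* (-4.20) and *Lage3* (-2.84) were lower.

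Of the methylation genes, *Dnmt3l* (8.44) and *Dnmt3a* (2.07) were higher and *Uhrf1* (-2.87) was lower. The piRNA genes *Piwil4* (4.22) and *Piwil2* (1.67) were higher, as were *Pou5f1* (3.17), *Sall4* (3.64) and *Stra8* (5.24), which fell in females. The signalling genes *Nodal* (-2.06), *Lefty2* (-5.50) and *Tdgf1* (-2.54), as well as *Nanos2* (-2.25), were lower in males, with levels near or under 1 TPM in females. Cell cycle genes differed both ways, with *Mki67* (-2.38) and *Trp53* (-2.10) lower and *Ccnb1* (1.58) and *Cdkn2b* (1.62) higher.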

How the results depend on the processing

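Counts of calls in control males (7832 higher, 2594 lower) moved with the filter, the scaling and the thresholds. The higher count was 2751 with 1 TPM required at both stages (an alternative chosen after seeing the data), 4117 with a minimum of 5 TPM, 3903 after quantile normalization and 2991 at a log2 threshold of 2. The lower count was 4659 after quantile normalization, 587 at a log2 threshold of 2 and 4621 with no fold threshold. It stayed within 1.5 times of the main count under the others, as did the higher count. In IUHG males the higher count was 5368 with FPKM, 4381 at 5 TPM, 3979 after quantile normalization and 3061 at a log2 threshold of 2, and the lower count was 3846 after median-of-ratios scaling, 4633 after quantile normalization, 642 at a log2 threshold of 2 and 4432 with no fold threshold. In females the counts at a log2 threshold of 2 were 1101 higher and 593 lower, and 1165 were lower with no filter. For the interaction the higher count was 3903 at 5 TPM and 2940 at a log2 threshold of 2, where the lower count was 1226. Leaving out 1 library gave 7590 to 7754 higher and 2512 to 2583 lower in control males, 7893 to 8197 and 2467 to 2538 in IUHG males, 2604 to 3280 and 1349 to 1580 in females, and 5760 to 6327 and 3269 to 3801 for the interaction. The cause of these shifts was not tested.

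Values that changed sign were not called: *Cdkn1b* (-0.33 after quantile normalization), *Tubb5* (-0.13 after median-of-ratios scaling), and the medians of the CDK inhibitor list (-0.21 with 1 TPM at both stages, -0.67 at 5 TPM, -0.0078 after median-of-ratios scaling, -0.58 after quantile normalization), of Sertoli genes (-0.31 after quantile normalization) and of endothelial genes (-2.93 with 1 TPM at both stages, where *Pecam1* alone is left). Medians near 0 also changed sign: that of DNA methylation genes was -0.11 with 1 TPM at both stages, -0.061 with protein-coding genes alone, -0.065 after median-of-ratios scaling and -0.74 after quantile normalization. After median-of-ratios scaling, those of glycolysis genes and mitochondrial mRNAs were -0.33 and -0.27, and the glycolysis, spermatogonial and macrophage medians crossed 0 under other settings as well. Of 117 called genes that were named by rule, 104 kept their call under every alternative. Most had been picked because they were called, so this count is a description.

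Replicate numbers did not pair the libraries: deviations of same-numbered E13.5M and E16.5M libraries correlated at -0.043, -0.017 and -0.056. A replicate block gave 7870 genes higher and 2603 lower.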
